A study of Parasteatoda tepidariorum with 16 samples.

Results

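Among the 27990 gene models counted in cells drawn from the spider germ disc, 4 encode metabolic enzymes whose transcripts were high in cells of the central region. They are *g13797* (CTP synthase 1), *g18848* (mitochondrial glycine dehydrogenase, decarboxylating), *g10527* (dimethylaniline monooxygenase 5) and *g26914* (gamma-butyrobetaine dioxygenase), with products as named in the deposited gene table. The 4 were chosen by identifier, with the difference between central cells and the other cells already known. That difference is therefore described below without a test. All 4 passed the filter on low values (at least 1 CPM, that is counts scaled by library size, in any library), as did 13511 genes in all.

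The libraries came from wild-type embryos of *Parasteatoda tepidariorum*, isolate Osaka, kept at a single temperature and given no treatment. Cells were drawn into glass capillaries from the central (c), intermediate (i) or peripheral (p) region of the germ disc, the sheet of cells that gives rise to the body of the spider. The labels give about 10 to 100 cells per library. The 16 libraries form 7 groups. At stage 3, about 20 h after egg laying, there were 2 libraries of c cells, 3 of i cells and 3 of p cells. Stage 4 (28 to 29 h) and early stage 5 (31 to 32 h) each had 2 c and 2 p libraries. According to the labels there were 4 mothers: one for stage-3 c and p cells, another for stage-3 i cells, and one for each later stage. Stage and mother, and at stage 3 the i region and mother, cannot be told apart. Nothing in the labels says whether libraries of a group came from separate embryos, so that p-values measure the spread between these libraries only. Fewer cells of a type and less RNA per cell cannot be told apart in such bulk samples.

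The enzymes belong to separate branches of metabolism. CTP synthase makes CTP from UTP with glutamine as nitrogen donor, and CTP is spent on RNA and on the activated precursors of membrane phospholipids. Glycine dehydrogenase is the P protein of the mitochondrial glycine cleavage system. With the aminomethyltransferase (T protein), the lipoyl-carrying H protein and dihydrolipoyl dehydrogenase (L protein), it splits glycine and hands a one-carbon unit to tetrahydrofolate. Dimethylaniline monooxygenases are flavin-containing enzymes that add oxygen to nitrogen or sulfur in small molecules, and vertebrates use them to clear foreign compounds. Gamma-butyrobetaine dioxygenase catalyses the last step of carnitine synthesis, and carnitine carries long-chain fatty acids into mitochondria. These roles are known from other organisms, mainly bacteria, yeast and mammals.

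In the assembly Ptep_1.0, *g13797* (LOC107439477) covers positions 250396 to 303194 of scaffold 1730 on the plus strand. *g18848* (LOC107445969) covers 16900 to 69694 of scaffold 3000 on the minus strand. *g10527* (LOC107450480) lies at 259376 to 302290 of scaffold 1179 on the plus strand, and *g26914* (LOC107439896) at 44312 to 72614 of scaffold 180 on the minus strand. CTP synthase, glycine dehydrogenase and gamma-butyrobetaine dioxygenase were each named for 1 gene model. The dimethylaniline monooxygenase 5 name was shared, with or without the ending -like, by 19 further models, 3 of them on the scaffold of *g10527*, so reads of near-identical copies may have been lost or assigned elsewhere. One further model, *g13798*, overlaps *g13797* on the same strand. No other gene model overlaps the other 3 genes.

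Libraries held between 4566853 and 10500376 counts on genes. Levels are given as CPM, with library sizes normalized by edgeR's TMM method. A count of 0 allows up to 3 counts, which is 0.255 to 0.774 CPM depending on the library. The reads were amplified by PCR and carry no molecular identifiers, so this limit covers counting error alone. The region labels were checked with marker genes of the regions. *Pt-Ets4* (*g4238*) lay between 403 and 2270 CPM in the 6 c libraries and at no more than 1.28 CPM in the other 10. The summed level of 4 peripheral markers (*Pt-hh*, *Pt-lab1*, *Pt-opa* and *Pt-BarH1*) was 489 to 1610 CPM in the later p libraries and 22.8 to 138 CPM in the later c libraries. Taken singly, *Pt-BarH1* overlapped at stage 4 between c cells (16.3 and 63.8 CPM) and p cells (26.6 and 142 CPM). At stage 3 the markers' sums overlapped among the regions. The p libraries of stage 4 differed from each other. The second (p2) had all of a set of 7 endoderm genes above 1 CPM (summed level 661 CPM), while the first (p1) had all 7 below 1 CPM (1.56 CPM). All 7 were also above 1 CPM in the second p library of early stage 5 (444 CPM). By library size alone, p1 of stage 4 had 4511 genes at 1 CPM or more, the fewest of the 16 libraries, and p2 had 7799. Results that rest on p2 are given with and without it, and without it stage-4 p cells rest on p1 alone. The set comes from a group of genes that the study found dependent on *fuchi*, a GATA-like gene, and detected in internalized endoderm. *g26914* belongs to the same group and was left out of the set because it is a member here, so its likeness to these genes is no separate observation.

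*g13797*, CTP synthase, was detected in every library and had its highest levels in c cells of the later stages. At stage 3 it stood at 282 and 884 CPM in c cells, at 333, 138 and 229 CPM in i cells, and at 150, 113 and 110 CPM in p cells. The c libraries were both above all p libraries, whereas the lower c library fell within the i cells. At stage 4 the levels were 2561 and 1744 CPM in c cells against 373 and 715 CPM in p cells. At early stage 5 they were 1317 and 1576 CPM in c cells against 274 and 307 CPM in p cells. The c and p libraries did not overlap at any stage. The ratio of mean c to mean p level was 4.68, 3.96 and 4.98 in order of stage.

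*g18848*, glycine dehydrogenase, ran from 0 to 2053 CPM. It was near absent from i cells at stage 3 (0, 0.217 and 0.141 CPM, which are 0, 2 and 1 counts), at 36.6 and 123 CPM in c cells, and at 0.0885, 0.196 and 27.8 CPM in p cells. A single p library thus held 99.0% of the summed p level. At stage 4 both c libraries were close to each other, at 1997 and 2053 CPM. The p libraries were far apart, at 2.25 CPM in p1 and 557 CPM in p2. At early stage 5 the level was 689 and 852 CPM in c cells, and 31.3 and 364 CPM in p cells. The c libraries were above the p libraries at each stage, by 8.5-fold, 7.25-fold and 3.90-fold on the means in order of stage. Each of these ratios has a p mean that rests mainly on 1 library. On the scale of log2(mean CPM + 1) the differences were 2.96, 2.85 and 1.96, and without that library 6.14, 9.29 and 4.58.

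*g10527*, the flavin monooxygenase, had another profile. At stage 3 its levels in c cells (70.6 and 74.4 CPM) and i cells (73.8, 65.1 and 46.4 CPM) overlapped, and p cells were lower at 14.9, 19.9 and 47.7 CPM. At stage 4 it reached 424 and 263 CPM in c cells and was all but absent from p cells, with a count of 0 in p1 and of 1 in p2. Against a floor of 3 counts per library the stage-4 c cells were at least 774-fold higher. At early stage 5 it stood at 166 and 184 CPM in c cells and at 0.213 and 10.8 CPM in p cells, 31.9-fold apart on the means. As log2(mean CPM + 1) this was a difference of 4.76, and of 7.18 without the second p library. The gene was the only one of the 4 to be at the floor in both p libraries of stage 4, p2 included.

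*g26914*, gamma-butyrobetaine dioxygenase, was uneven among replicates. All 3 i libraries of stage 3 had a count of 0. The c libraries stood at 31.8 and 360 CPM, and the p libraries at 0.0885, 30.4 and 0 CPM. The lower c library and the highest p library thus differed little, and the second c library held 91.9% of the summed c level. At stage 4 the c libraries were at 215 and 171 CPM, p1 at 0.864 CPM and p2 at 223 CPM, above both c libraries. The difference between c and p cells as log2(mean CPM + 1) was 0.78 at this stage, and 6.70 without p2. At early stage 5 the gene stood at 327 and 570 CPM in c cells and at 32.1 and 59.8 CPM in p cells, 9.76-fold apart on the means with no overlap.

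**Figure D1:**
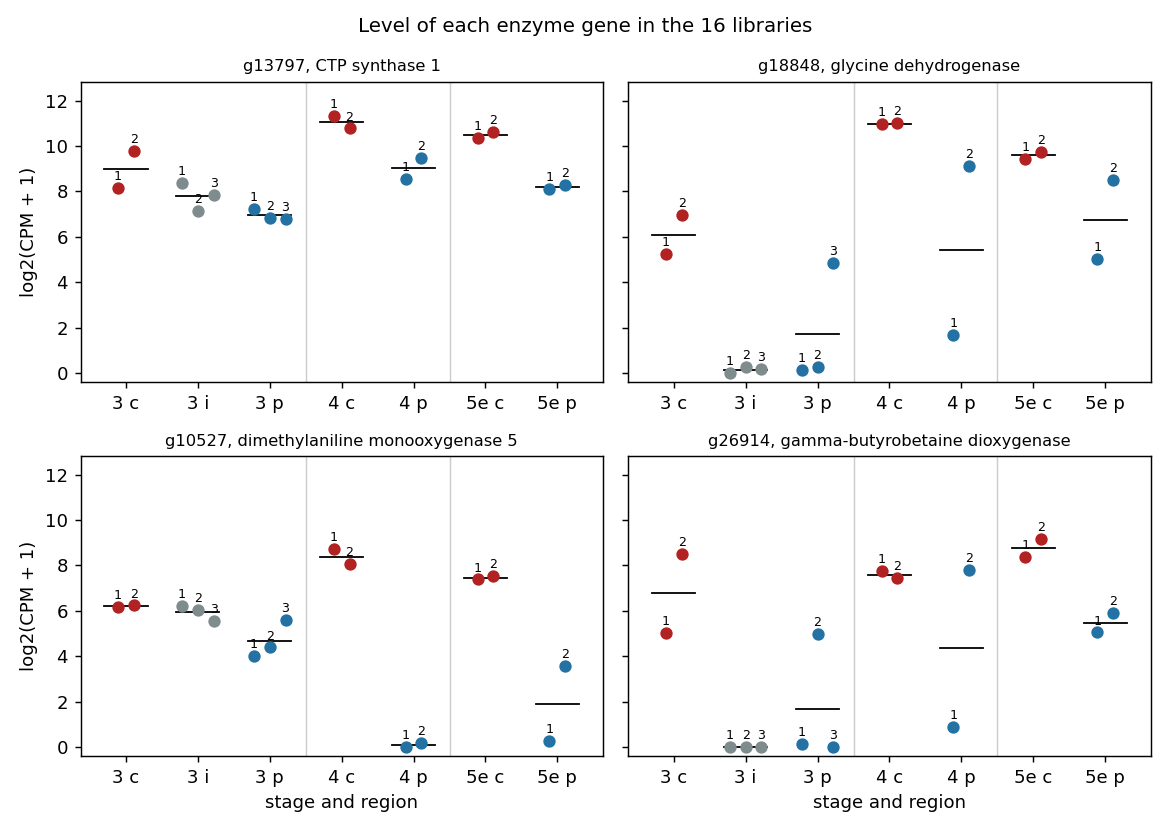
Level of each gene as log2(CPM + 1) (vertical axis) by stage and region (horizontal axis; 5e, early stage 5), with c cells in red, i cells in grey and p cells in blue. Each point is a library, marked with its replicate number, and the bar is the mean of the group on the log scale. *g13797* was present everywhere, *g18848* and *g26914* were at or near 0 in the i cells, and *g10527* was at or near 0 in both p libraries of stage 4.

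Counted over the members, all c libraries lay above all p libraries for 4 of 4 genes at stage 3, 3 of 4 at stage 4 and 4 of 4 in early stage-5 embryos. The same held for 8.73%, 12% and 20.4% of all genes tested at those stages. At all 3 stages it held for *g13797*, *g18848* and *g10527*, and for 0.829% of genes tested. The c libraries were above all i libraries for *g18848* and *g26914*, and this was so for 11% of genes tested. The members were chosen on these differences, so that nothing is read from these shares. On the means, *g18848* was at least 210-fold higher in c than in i cells and *g26914* at least 516-fold, taking 3 counts per library as the floor. The corresponding ratio was 2.5 for *g13797* and 1.17 for *g10527*.

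Levels of different genes can be compared only per length, for which the deposited RPKM values, which divide the reads by gene length and library size, were used. In stage-4 c cells *g13797* was the highest of the 4 at 769 ± 270 RPKM (SD, n = 2), followed by *g18848* at 507 ± 34, *g10527* at 121 ± 49.7 and *g26914* at 102 ± 24.7 RPKM. The first pair did not overlap, with 578 RPKM as the lower *g13797* library and 531 RPKM as the higher *g18848* library, while *g10527* and *g26914* overlapped. In early stage-5 c cells the order was *g13797* (504 ± 72.0 RPKM), *g26914* (233 ± 92.7), *g18848* (191 ± 31.4) and *g10527* (59.8 ± 5.41), and the neighbours *g26914* and *g18848* overlapped. In stage-3 c cells *g13797* (256 ± 186 RPKM), *g26914* (128 ± 151), *g10527* (31.3 ± 0.955) and *g18848* (24.8 ± 18.9) were all within the spread of their neighbours. By rank, *g13797* was the 116th and 182nd most abundant gene in the c libraries of stage 4, and *g18848* the 189th and 209th. *g18848* had been the 5032nd and 2413th in the c libraries of stage 3.

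Ordered by mean level over the 7 groups, *g13797* ran from stage-4 c cells (2152 ± 578 CPM, SD, n = 2) through early stage-5 c cells (1447 ± 183), stage-3 c cells (583 ± 426) and stage-4 p cells (544 ± 241) to early stage-5 p cells (291 ± 23.1), stage-3 i cells (233 ± 97.4, n = 3) and stage-3 p cells (124 ± 22.2, n = 3). The 3 c groups were apart from each other, as were stage-4 and early stage-5 p cells. The other neighbours in this order overlapped. For *g18848* the order was stage-4 c (2025 ± 39.3 CPM), early stage-5 c (771 ± 115), stage-4 p (279 ± 392), early stage-5 p (198 ± 235), stage-3 c (79.6 ± 60.9), stage-3 p (9.37 ± 16) and stage-3 i cells (0.119 ± 0.110). The first 3 groups were apart from each other, stage-4 p, early stage-5 p and stage-3 c cells overlapped in turn, stage-3 c cells were apart from p cells, and stage-3 p and i cells overlapped. For *g10527* it was stage-4 c (343 ± 114 CPM), early stage-5 c (175 ± 13.0), stage-3 c (72.5 ± 2.68), stage-3 i (61.8 ± 14.0), stage-3 p (27.5 ± 17.7), early stage-5 p (5.49 ± 7.46) and stage-4 p cells (0.0614 ± 0.0868). The c groups of this gene were apart from each other and stage-3 c, i and p cells overlapped in turn. The later p groups came last, apart from stage-3 p cells and, by levels near the floor, from each other. For *g26914* the order was early stage-5 c (448 ± 172 CPM), stage-3 c (196 ± 232), stage-4 c (193 ± 30.5), stage-4 p (112 ± 157), early stage-5 p (45.9 ± 19.6), stage-3 p (10.1 ± 17.5) and stage-3 i cells (0 in each library). The first 5 groups overlapped in turn, early stage-5 and stage-3 p cells were apart, and stage-3 p and i cells overlapped.

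Comparisons of 2 kinds hold no difference between c cells and other cells: i against p cells at stage 3, and the change between stages within c cells or within p cells. These were tested by edgeR's quasi-likelihood test over all 13511 genes with Benjamini-Hochberg adjustment, at an adjusted p under 0.05. The libraries are those on which the members were chosen for high levels in c cells. Nothing is therefore read from the number of members called beside the share of all genes tested. The test gave every gene the spread of genes of its level, and the spread of *g18848* among replicates was 20.9 times, and of *g26914* 7.78 times, what it was given. It was 2.09 times for *g13797* and 0.895 times for *g10527*. A robust version of the fit, which leaves such genes more of their own spread and was added after this had been seen, is therefore given beside each call as the robust adjusted p.

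In c cells, CTP synthase and glycine dehydrogenase were higher at stage 4 than at stage 3. This made 2 of 4 members higher and 0 lower, where 1.41% of all genes tested were called higher. Over all genes 191 were higher and 104 lower, and with library sizes alone in place of TMM 136 and 169. The robust fit called 2.08% of genes. Both stage-4 c libraries were above both stage-3 c libraries for 3 of 4 members and for 15.3% of genes tested. As the members were chosen for high levels in c cells, nothing is read from these shares. The rise of *g13797* was 3.69-fold on the means, with a log2 fold change of 1.89 ± 0.40 (SE; adjusted p = 0.000238, edgeR; robust adjusted p = 4.4e-05). The stage-4 and stage-3 c libraries of this gene did not overlap, and the call was lost without the first c library of stage 3 (log2 fold change 1.28, adjusted p = 0.216) or the first of stage 4 (1.58, adjusted p = 0.0719). The rise of *g18848* was 25.4-fold, with a log2 fold change of 4.67 ± 0.61 (adjusted p = 4.91e-12, edgeR). Its robust adjusted p was 0.687, and its adjusted p with a filter of at least 10 counts in at least 2 libraries 0.180. Both stage-4 libraries (1997 and 2053 CPM) were above the higher stage-3 library (123 CPM). *g10527* was also without overlap, 4.74-fold apart, and not called (log2 fold change 2.24 ± 1.33, adjusted p = 0.715). *g26914* had nearly equal means at both stages (log2 fold change -0.02 ± 1.04, adjusted p = 1), with a stage-3 mean set by its second library.

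From stage 4 to early stage 5, none of the 4 genes was called in c cells by edgeR, where 0.74% of all genes tested were. None of the 4 was called in the robust fit, which called 0.525% of genes, and neither *g13797* nor *g10527* was by DESeq2, which gave no adjusted p for the other two. The log2 fold changes were -0.57 ± 0.39 for *g13797*, -1.39 ± 0.53 for *g18848*, -0.97 ± 1.28 for *g10527* and 1.22 ± 1.05 for *g26914* (adjusted p from 0.661 to 1, edgeR). For each gene the 2 stages did not overlap, with the early stage-5 libraries on the lower side for the first 3 and on the higher side for *g26914*. The share of all genes tested without overlap in this step is not given, so that nothing is read from this. An unadjusted p under 0.05 was reached by *g18848* alone, at 0.00871.

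In p cells, CTP synthase rose and the flavin monooxygenase fell between stage 3 and stage 4. Of the 4 members 3 were called higher and 1 lower, where 2.18% and 1.1% of all genes tested were. These were 295 genes higher and 149 lower, and with library sizes alone 198 and 214. The robust fit called 2.9%. *g13797* was 4.37-fold higher at stage 4, with no overlap (log2 fold change 2.13 ± 0.35, adjusted p = 1.85e-07, edgeR; robust adjusted p = 9.95e-09), and stayed called without any single library. *g10527* was at least 62.1-fold lower at stage 4, against the floor of 3 counts per library (adjusted p = 0.000292, edgeR; robust adjusted p = 4.26e-05). This call was also kept without any single library, and was lost where only the p libraries of these stages entered the fit (adjusted p = 0.729). *g18848* and *g26914* were called higher (log2 fold changes 4.89 ± 0.52 and 3.46 ± 0.98, adjusted p = 1.27e-18 and 0.0155, edgeR), but their stage-4 libraries lay on either side of the highest stage-3 library. Without p2 of stage 4 both turned, to -2.05 (adjusted p = 0.0801) and -3.53 (adjusted p = 0.288), and their robust adjusted p was 0.488 and 0.737. *g26914* also lost its call without the first or the third p library of stage 3 or the second c library of early stage 5 (adjusted p = 0.123, 0.139 and 0.0994).

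From stage 4 to early stage 5, *g10527* was the only member called in p cells, where 1.1% of all genes tested were, and 0.785% in the robust fit. It was at least 12.4-fold higher at early stage 5 on the means (adjusted p = 0.0407, edgeR; robust adjusted p = 0.0161), which is set by the second p library at 10.8 CPM, since the first had 1 count. Without that library the log2 fold change was 1.45 (adjusted p = 1), and the call was also lost without either c or either p library of stage 4 or either c library of early stage 5, with the adjusted p over all 7 of these libraries from 0.0836 to 1. The others had log2 fold changes of -0.90 ± 0.39 for *g13797*, -0.50 ± 0.52 for *g18848* and -1.28 ± 1.06 for *g26914* (adjusted p from 0.889 to 1, edgeR). Of these, *g13797* was without overlap, both early stage-5 libraries being the lower. Without p2 of stage 4 *g18848* was called higher instead (log2 fold change 6.45, adjusted p = 1.44e-10), and without the second p library of early stage 5 it was called lower (-3.16, adjusted p = 0.00633).

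At stage 3 the i and p cells were compared, in which 0.592% of all genes tested were called, and 0.237% in the robust fit. *g18848* and *g26914* were called lower in i cells, at least 24.7-fold and 26.7-fold on the means against the floor (adjusted p = 6.63e-21 and 7.65e-08, edgeR). Each call rests on 1 p library, the third for *g18848* and the second for *g26914*: without it the adjusted p was 1 and 0.934. The robust adjusted p was 0.507 for both. The other p libraries of these genes had counts of 0 to 2, the same as the i libraries, so that the groups overlapped. *g13797* and *g10527* were not called (log2 fold changes 0.91 ± 0.32 and 1.17 ± 1.05, adjusted p = 0.298 and 0.998, edgeR).

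**Figure D2:**
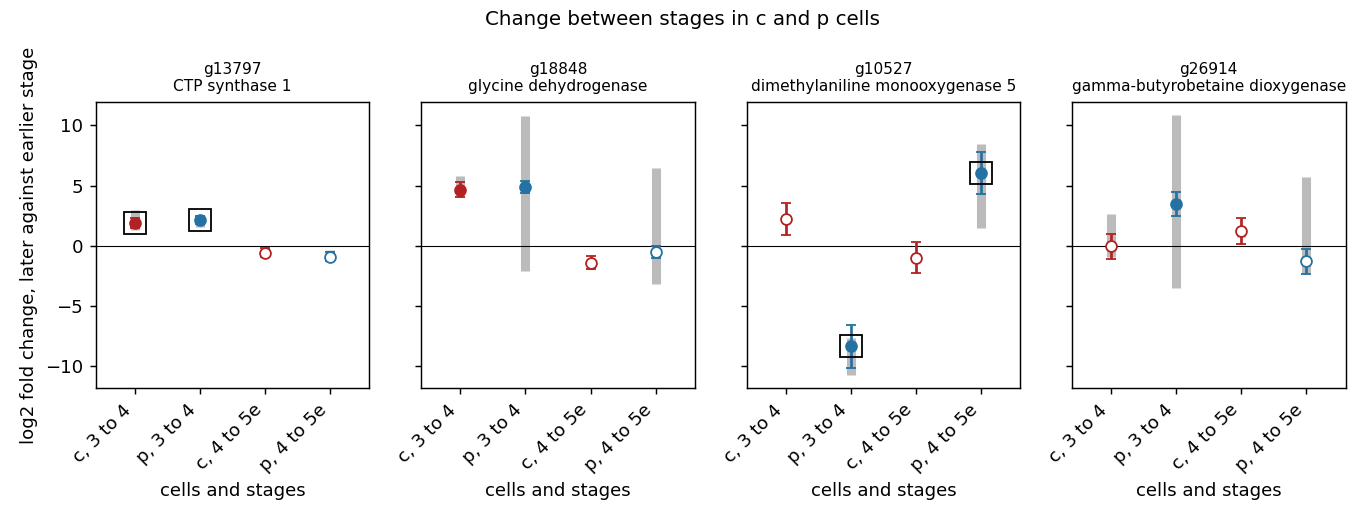
Log2 fold change (vertical axis; positive where the later stage was higher) for each gene, in c cells (red) and p cells (blue), from stage 3 to 4 and from stage 4 to early stage 5 (horizontal axis). Points with error bars are the fitted value ± SE, filled where the adjusted p was under 0.05 and boxed where the robust fit called it too, and grey bars span the values with each of the 16 libraries left out in turn. The grey bars of *g18848* and *g26914* in p cells cross 0, and those of *g13797* from stage 3 to 4 do not. Values for *g10527* in p cells are fitted against a group at the floor and depend on the prior count.

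Whether a stage change differed between c and p cells is a matter of the difference between c and p cells, on which the members were chosen, and is described without a test. As log2(mean CPM + 1), the difference between c and p cells of *g13797* was 2.22 at stage 3, 1.98 at stage 4 and 2.31 in early stage-5 embryos. That of *g10527* was 1.37, 8.34 and 4.76 in the same order. *g10527* was the only member whose c and p libraries all moved in opposite directions from stage 3 to 4, up in c and down in p cells. The share of all genes tested with such a pattern is not given, so that nothing is read from it. In the next step the c libraries of *g10527* were lower, and of its p libraries only the second of early stage 5 was above the floor. The difference was 2.96, 2.85 and 1.96 for *g18848* and 4.14, 0.78 and 3.26 for *g26914*, and without p2 the stage-4 values of this pair were 9.29 and 6.70.

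The p libraries of stage 4 divided the members. In p1, *g18848*, *g26914* and *g10527* stood at 0.111%, 0.448% and 0% of their mean level in stage-4 c cells, and *g13797* at 17.3%. In p2 the corresponding values were 27.5%, 116%, 0.0358% and 33.2%. The median over all genes with at least 10 CPM in stage-4 c cells was 60.9% in p1 and 83.4% in p2. Among the 7 endoderm genes, 5 stood at 12.4% to 27.8% of the c level in p2, *g2114* at 45.5% and *g486*, which was low in c cells, at 368%, against at most 0.309% for any of them in p1. *fuchi* (*g26874*) was at 3.13% in p1 and 42.8% in p2. *Pt-Ets4* was at 0.0359% in p1 and 0.0340% in p2. *g18848*, *g26914*, *fuchi* and the endoderm genes were thus low in p1 and high in p2, and *g10527* and *Pt-Ets4* were low in both, *g26914* being itself one of the study's endoderm genes. The part that such transcripts in p2 have in the members' levels was not tested. The peripheral markers *Pt-hh* (36.3 and 399 CPM), *Pt-lab1* (105 and 314 CPM) and *Pt-BarH1* (26.6 and 142 CPM) were also higher in p2, and *Pt-opa* (321 and 225 CPM) was not.

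**Figure D3:**
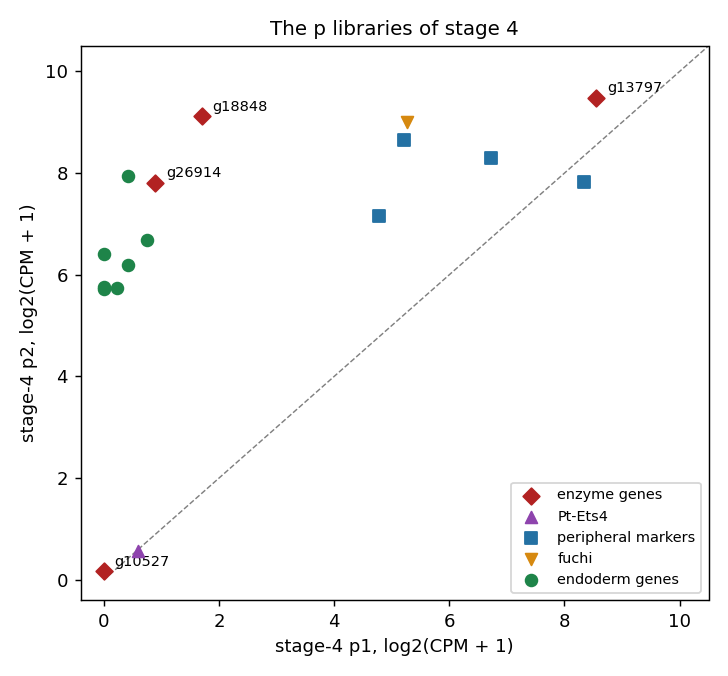
Level in the second p library of stage 4 (vertical axis) against the first (horizontal axis), both as log2(CPM + 1), for the 4 enzyme genes (red diamonds), *Pt-Ets4*, *fuchi*, the 7 endoderm genes and the 4 peripheral markers. The dashed line marks equal levels. *g18848* and *g26914* lie with the endoderm genes, near 0 in p1 and high in p2, while *g10527* and *Pt-Ets4* are near 0 in both. *g26914* is itself one of the study's endoderm genes.

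At early stage 5 the p libraries also differed in the endoderm genes, but the members divided otherwise than at stage 4. The endoderm genes summed to 29.3 CPM in p1 and 444 CPM in p2, and *fuchi* stood at 62.7 and 289 CPM. *Pt-Ets4* was at 1.28 and 0.192 CPM, and the peripheral markers summed to 1610 and 973 CPM. *g18848* (31.3 and 364 CPM) and *g10527* (0.213 and 10.8 CPM) were higher in p2 by more than *g26914* (32.1 and 59.8 CPM), and *g13797* (274 and 307 CPM) was nearly equal. At stage 3, the second c library had more of the endoderm genes (summed level 729 CPM against 103 CPM in the first) and more of *g13797*, *g18848* and *g26914*, whereas *g10527* was equal in both. Among the stage-3 p libraries this differed by gene. *g18848* was highest in the third (27.8 CPM), where the endoderm sum was highest (157 CPM). *g26914* was highest in the second (30.4 CPM), where that sum was lowest (26.8 CPM), and at 0 in the third.

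Over the 16 libraries, the levels of *g18848* and *g26914* went together most closely among the members (Pearson's r of log2(CPM + 1) = 0.86). The correlation of *g13797* was 0.82 with *g18848*, 0.78 with *g26914* and 0.41 with *g10527*, while *g10527* stood at 0.29 with *g18848* and 0.22 with *g26914*. With *fuchi* the values were 0.84 for *g18848*, 0.85 for *g26914*, 0.65 for *g13797* and 0.17 for *g10527*. That of *g26914* concerns a gene the study already tied to *fuchi*. With *Pt-Ets4* they were 0.77 for *g13797*, 0.72 for *g26914*, 0.69 for *g18848* and 0.64 for *g10527*. These are descriptions over libraries that fall into 7 groups, and all genes of a library share its cells and depth.

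The genes most alike in pattern were ranked by the same correlation over all genes tested. For *g13797* they were *g27539* (one of the endoderm genes, with no product given; r = 0.93), *g15167* (EF-hand domain-containing protein D2; 0.93), *g11804* (proteasome subunit alpha type-6; 0.93), *g3230* (dipeptidyl peptidase 1; 0.91) and *g7477*, an equilibrative nucleoside transporter (0.91), a class of membrane protein that moves nucleosides into cells. For *g18848* they were *g6432* (cathepsin L1-like, a lysosomal protease; 0.96), *g4571* (heparan-alpha-glucosaminide N-acetyltransferase-like, an enzyme of heparan sulfate breakdown in lysosomes; 0.95), *g3230* (0.95), the endoderm gene *g2114* (0.94) and *g17369* (plexin-B, a semaphorin receptor; 0.93). For *g26914* they were *g1222* (glypican-5, a cell-surface heparan sulfate proteoglycan; 0.97), *g22652* (tyrosine-protein kinase-like otk; 0.94), *g4571* (0.93), *g4429* (VTA1 homolog, of vesicle sorting; 0.92) and *g6432* (0.92). For *g10527* they were *g18790* (cinnamoyl-CoA reductase 2; 0.90), *g25422* (alpha-actinin, which cross-links actin filaments; 0.87), *g7021* (0.86), *g27330* (0.85) and *g7019* (0.83). The lists of *g18848* and *g26914* share *g6432* and *g4571*, those of *g13797* and *g18848* share *g3230*, and none of the 5 listed for *g10527* is in another list.

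CTP synthase was set beside the other genes of pyrimidine nucleotide synthesis. Of the 24 other genes in this list 20 were tested. In c cells from stage 3 to 4, 0 of the 20 were called by edgeR or in the robust fit and 1 by DESeq2, while 3 had an unadjusted p under 0.05, with a median log2 fold change of -0.06 against 0.00 over all genes tested and 1.89 for *g13797*. In p cells 1 of 20 was called lower by edgeR, where 1.1% of all genes were, while DESeq2 called 4 and 4 had an unadjusted p under 0.05. The gene called by edgeR was *g2820*, the small subunit of ribonucleotide reductase, which makes deoxyribonucleotides. It stood at 441, 604 and 535 CPM at stage 3 and at 115 and 205 CPM at stage 4 (log2 fold change -1.72 ± 0.54, adjusted p = 0.0489, edgeR; robust adjusted p = 0.0127), opposite to *g13797*. CAD (*g27081*), the enzyme that starts the pathway, stood at 259 and 380 CPM in c cells and 333, 259 and 285 CPM in p cells of stage 3, and at 718 and 565 CPM in c cells against 351 and 386 CPM in p cells of stage 4. It was 1.74-fold higher in c than in p cells at stage 4, where *g13797* was 3.96-fold higher, and 1.75-fold at early stage 5, without overlap at these stages. Uridine 5'-monophosphate synthase (*g26138*), which completes UMP, was at 152 and 153 CPM in c cells and 271 and 165 CPM in p cells of stage 4, the c libraries being the lower. UMP-CMP kinase (*g23603*) was at 140 and 93.5 against 130 and 49.6 CPM, with overlap. The c libraries were all above the p libraries for 1, 2 and 4 of the 20 genes at the 3 stages in turn, and the median log2 difference between c and p cells was -0.13, 0.14 and 0.03, near that over all genes tested (0.00, 0.00 and 0.08).

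Of 4 enzymes that spend CTP on lipids, 0 were called by edgeR in any of the 5 tests. In a single test at most 1 of them had an unadjusted p under 0.05, and at most 1 was called by DESeq2. The enzyme that makes CDP-choline from CTP (*g16991*) stood at 147 and 28.4 CPM in stage-4 c cells and at 43.2 and 52.8 CPM in p cells, with overlap. Its counterpart for CDP-ethanolamine (*g26805*) was at 78.4 and 31.5 CPM in c cells and 0.173 and 17.6 CPM in p cells. Of the enzymes that make CDP-diacylglycerol, *g17231* was at 42.2 to 162 CPM in the stage-3 libraries and at most 8.72 CPM later. The mitochondrial one (*g26455*) was at 13.4 CPM in the first c library of stage 3 and at most 0.107 CPM in the others of that stage. It stood at 17.8 CPM in p2 of stage 4 and at 4.25 and 8.07 CPM in early stage-5 p cells.

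Genes of glycine cleavage and one-carbon metabolism were in part higher in c cells along with *g18848*. Of 17 others 15 were tested, and the c libraries lay above the p libraries for 2, 6 and 5 of them at stages 3, 4 and early stage 5, beside the shares of 8.73%, 12% and 20.4% of all genes tested. The 15 are gene models, some of which share a LOC identifier. Models *g18227* and *g18228*, which share one, are both among the 6 and among the 5, and *g18228* is also among the 2. The median log2 difference between c and p cells was 0.00, 0.99 and -0.11. The T protein (*g8301*), aminomethyltransferase, stood at 0 in all 3 i libraries, at 17.5 and 70.8 CPM in c cells and 16.5, 0 and 38.2 CPM in p cells of stage 3. At stage 4 it was at 205 and 242 CPM in c cells and at 0 and 11.2 CPM in p cells, and at early stage 5 at 191 and 207 CPM against 4.89 and 76.1 CPM. As for *g18848*, the c cells were higher without overlap at both later stages, 40.0-fold and 4.90-fold on the means, and p2 was the higher p library. The H protein (*g16375*) was at 15.2 to 26.3 CPM in c cells and 0 to 5.11 CPM in p cells of stage 3, 12.2-fold apart without overlap. It was at 91.7 and 48.8 CPM in c cells and 40.6 and 95.4 CPM in p cells of stage 4, with overlap, and at 42.3 and 91.1 against 4.89 and 19.8 CPM at early stage 5. The L protein (*g11044*), which other dehydrogenase complexes also use, was at 43.9 and 74.2 CPM in c cells and 163 and 23.1 CPM in p cells of stage 4. Both c libraries were thus above all p libraries for the P protein at each stage, for the T protein at the later stages and for the H protein at stage 3 and early stage 5.

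Downstream of the one-carbon unit, C-1-tetrahydrofolate synthase (*g18227*), which interconverts folate-bound one-carbon units, was at 395 and 272 CPM in c cells and 1.90 and 101 CPM in p cells of stage 4, and at 186 and 291 against 60.4 and 50.9 CPM at early stage 5. At stage 3 its levels were 64.1 and 65.2 CPM in c cells and 72.7, 83.5 and 0.340 CPM in p cells, without a c excess in each library. The adjacent model *g18228*, which shares its LOC identifier, differed at stage 3, at 21.5 and 38.8 CPM in c cells. Its p libraries ran from 1.24 to 21.0 CPM, so that the groups did not overlap, by a narrow margin. The mitochondrial serine hydroxymethyltransferase (*g25288*), which joins the one-carbon unit to a further glycine, overlapped between c cells (25.8 and 170 CPM) and p cells (44.2 and 53.4 CPM) at stage 4. Of the 15 genes tested, 1 was called by edgeR in any of the 5 tests, beside 0.592% of all genes between i and p cells, while DESeq2 called 2 between i and p cells and 1 in p cells from stage 3 to 4. The gene was *g8301*, lower in i than in p cells at stage 3 by at least 48-fold (adjusted p = 0.000526, edgeR; robust adjusted p = 0.000843), with 1 p library at 0 as in the i cells. Its own change in c cells from stage 3 to 4 was 5.07-fold and not called (log2 fold change 2.34 ± 1.65, adjusted p = 0.738).

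Of 27 other flavin monooxygenase genes, 15 had a count of 0 in every library, among them the 3 neighbours of *g10527* on its scaffold (*g10523*, *g10524* and *g10526*), and 11 were tested. The one called by edgeR was *g15065*. DESeq2 called 2 of the 11 in c cells from stage 3 to 4, and 1 each in p cells of that step and in c and p cells of the next. *g15065* was high in all regions at stage 3, at 250 and 314 CPM in c cells, 617, 289 and 540 CPM in i cells and 82.0, 202 and 340 CPM in p cells. At stage 4 it was at 0.445 and 18.8 CPM in c cells and 0 and 5.77 CPM in p cells. The fall was called in c cells (29.3-fold; log2 fold change -4.87 ± 1.01, adjusted p = 0.000139, edgeR) and in p cells (72.1-fold; -6.14 ± 1.06, adjusted p = 6.37e-07, edgeR), without overlap in either. The robust adjusted p was 0.640 and 0.326, and a further call of this gene in p cells from stage 4 to early stage 5 rests on levels of 5.77 CPM or less. Among the others, *g2353* was at 97.1 and 24.8 CPM in stage-4 c cells and at 0 in both p libraries, at least 137-fold apart, and *g10599* at 74.1 and 25.0 against 0 and 9.33 CPM. The c libraries were above the p libraries for 1, 4 and 3 of the 11 genes at the 3 stages, beside 8.73%, 12% and 20.4% of all genes tested.

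Gamma-butyrobetaine dioxygenase was set beside the genes that make, load and carry carnitine. Of the 11 others 10 were tested, and 0 were called by edgeR or in the robust fit in any of the 5 tests. An unadjusted p under 0.05 was reached by 3 of them between i and p cells and by 1 in p cells from stage 3 to 4, and DESeq2 called 1 between i and p cells. The c libraries were above the p libraries for 0, 1 and 1 of them at the 3 stages, beside the same shares of all genes tested. They were below for 1, 1 and 3, for which no share of all genes tested is given, so that nothing is read from these. Carnitine O-palmitoyltransferase 1, which loads fatty acids on carnitine, was represented by *g17212* (48.3 and 10.3 CPM in c cells, 62.6 and 22.1 CPM in p cells of stage 4) and *g18084* (150 and 138 against 147 and 119 CPM). Carnitine O-palmitoyltransferase 2 (*g16160*), which unloads them in the mitochondrion, stood at 31.9 and 29.5 against 0 and 22.1 CPM. The carnitine/acylcarnitine carrier (*g25889*) was at 0 and 19.5 against 0.346 and 0 CPM. Of these 4 genes only *g16160* had both c libraries above both p libraries at stage 4, and the others overlapped.

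**Figure D4:**
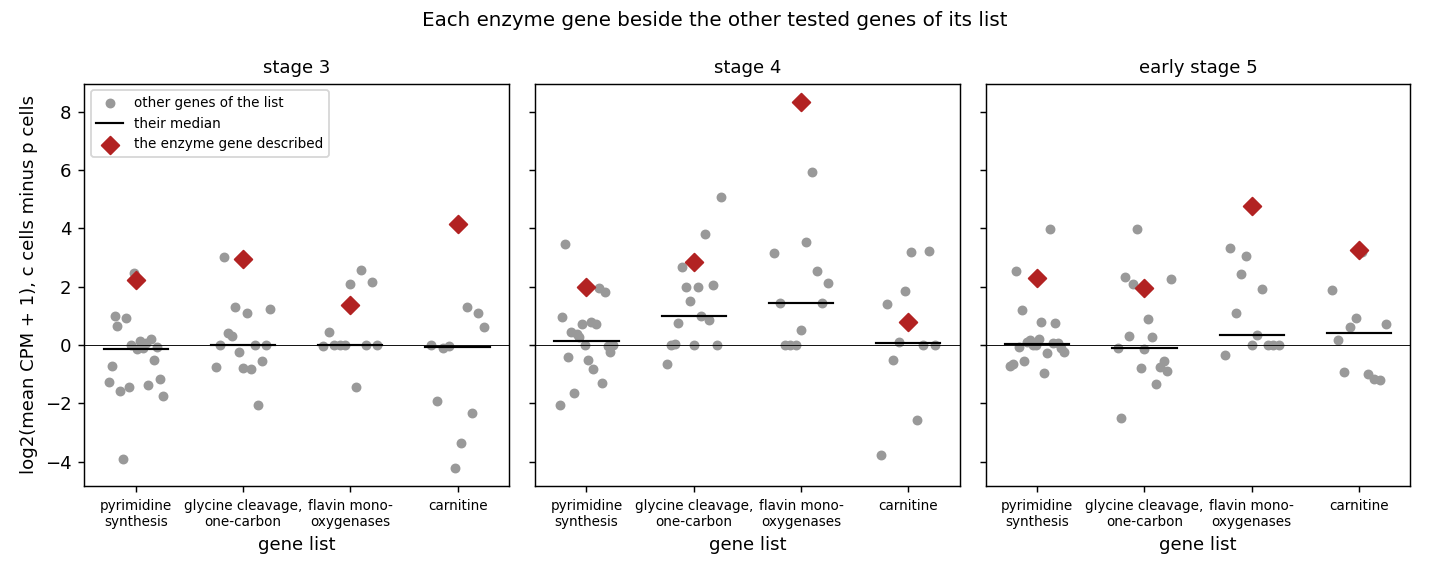
Difference between c and p cells in log2(mean CPM + 1) (vertical axis; positive where c cells were higher) for the tested genes of 4 lists (horizontal axis) at each stage. Grey points are the other genes of a list, the bar is their median and the red diamond is the enzyme gene described. Apart from *g26914* at stage 4 (0.78), the diamonds lie above the medians by 1.37 log2 units or more, for which the members were chosen.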

How the data were processed

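Per the labels and the methods of the study, cells were lysed in small pools, and cDNA was made and amplified by PCR with a SMARTer stranded kit and sequenced single-end on a MiSeq. Reads were trimmed by the authors and placed on the assembly Ptep_1.0 by BLAT. Alignments that passed filters were assigned to AUGUSTUS gene models in htseq-count. The submitters' processing notes name HTSeq 0.5.4p5 and edgeR. The deposited count table holds raw whole-number counts for each gene model and library, and the deposited RPKM table holds the same reads scaled to gene length and library size by the authors. Because alignments were filtered for uniqueness, counts of near-identical copies may be too low. Among the counts, 5 rows name no gene and hold counts in the early stage-5 libraries only (8.18% to 8.85% of each), and these rows were left out.

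Groups were taken from the labels (7 groups of 2 or 3 libraries), and 0 columns of per-sample values were left unmatched. The counts as deposited were normalized with TMM (factors of 0.815 to 1.20) and fitted with edgeR 4.0.16 (glmQLFit and glmQLFTest, R 4.3.3) in 1 model of all 16 libraries, for genes that reached 1 CPM in at least 1 library, with Benjamini-Hochberg adjustment over all genes and a threshold of 0.05. The tests were i against p cells and the stage changes within c and within p cells. A test of whether stage changes differ between c and p cells had been planned and is not given, since it holds the difference on which the genes were chosen. The scripts were tested on simulated data. Values in the text are CPM, RPKM, log2 fold changes ± SE and adjusted p-values. A difference of CPM on the log2 scale used a pseudocount of 1 CPM.

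The 4 genes and the gene lists were chosen with earlier results of these data known. Genes named are the 4, the genes with core roles or a call in lists drawn by words in the product text (pyrimidine synthesis, CTP-using lipid enzymes, glycine cleavage and one-carbon metabolism, flavin monooxygenases, carnitine), and the 5 tested genes with the highest Pearson correlation to each over the 16 libraries. Alternatives were DESeq2 1.42.0, DESeq2's size factors or library sizes alone, no filter or at least 10 counts in at least 2 libraries, only the groups compared, the replicate number as a block, and each library left out. The robust fit was chosen after seeing the data. LOC identifiers are those of the deposited table. Lists count gene models, some of which share a LOC identifier, so that a gene can be counted more than once.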

Additional observations from a re-analysis of the deposited data

Results flagged for a closer look

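*g10527* (dimethylaniline monooxygenase 5) moved in opposite directions in c and p cells from stage 3 to stage 4, in every library of the groups. From stage 3 to stage 4 it went from 70.6 and 74.4 CPM to 424 and 263 CPM in c cells, and from 14.9, 19.9 and 47.7 CPM to counts of 0 and 1 in p cells. The difference between c and p cells as log2(mean CPM + 1) grew by 6.98. From stage 4 to early stage 5 the c libraries were lower, at 166 and 184 CPM, and the p libraries higher, at 0.213 and 10.8 CPM, and the difference changed by -3.58. The lower of these p libraries had 1 count, as did p2 of stage 4, so that the rise in p cells rests on the other library. Whether the changes differ between c and p cells was not tested, because the gene was chosen on the difference between these cells. The share of all genes tested with such a pattern is not given.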

How the results depend on the processing

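Over the 5 tests and the alternatives that leave out no library, 156 values (log2 fold changes of the 4 genes and counts of genes called) kept their direction and their side of the threshold or stayed within 1.5 times the count, 19 lost the call, 1 gained it, 2 turned and 12 counts moved further. DESeq2 gave no adjusted p for *g18848* and *g26914* in any of the 5 tests. Its values for these genes are not counted here, and it neither kept nor lost their calls. The alternatives planned for the differences between stage changes in c and p cells were not used, since these are given without a test. The cause was not tested for any of them. With a filter of at least 10 counts in at least 2 libraries, calls were lost at log2 fold changes of -6.07 and -9.31 (*g18848* and *g26914*, i against p cells; adjusted p = 0.167 and 0.135), 4.67 (*g18848*, c cells, stage 4 against 3; 0.180), 3.46 (*g26914*, p cells, stage 4 against 3; 0.379) and 6.04 (*g10527*, p cells, early stage 5 against 4; 0.0942). With only the groups compared in the fit, calls were lost at -6.05 and -9.61 (*g18848* and *g26914*, i against p cells; 0.916 and 0.616), -8.48 and 3.46 (*g10527* and *g26914*, p cells, stage 4 against 3; 0.729 and 0.546) and 6.01 (*g10527*, p cells, early stage 5 against 4; 0.881), and gained for *g10527* at 2.18 (c cells, stage 4 against 3; 0.0377). With library sizes alone, calls were lost at 3.1 (*g26914*, p cells, stage 4 against 3; 0.0644) and 5.97 (*g10527*, p cells, early stage 5 against 4; 0.0521). In the robust fit, calls of *g18848* were lost at -6.08, 4.67 and 4.89 (i against p cells, then c and p cells of stage 4 against 3; 0.507, 0.687 and 0.488), and those of *g26914* at -9.31 (i against p cells; 0.507) and 3.46 (p cells, stage 4 against 3; 0.737).

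Counts of genes called, against 80, 295, 100, 444 and 149 in the order i against p cells, c cells stage 4 against 3, c cells early stage 5 against 4 and p cells likewise, were 432, 927, 303, 1138 and 372 by DESeq2. With the filter of 10 counts they were 6 (i against p cells), 45 (c cells) and 95 (p cells, both early stage 5 against 4). With only the groups compared, 13 genes were called between i and p cells and 3 in c cells from stage 4 to early stage 5. The robust fit called 32 between i and p cells. The median log2 fold change of all genes tested was 0.21 in c cells from stage 4 to early stage 5.

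Libraries with the same replicate number showed little correlation in their deviations from the group means (from -0.060 to 0.036). For c and p libraries of the same stage the values were 0.0084 to 0.036. Whether such libraries share embryos or handling cannot be told from this. With the replicate number as a block, *g26914* turned to 1.54 (c cells, stage 4 against 3) and 0.33 (p cells, early stage 5 against 4), lost its call at 2.92 (p cells, stage 4 against 3; adjusted p = 0.257), and *g10527* lost its own at 5.89 (p cells, early stage 5 against 4; 0.0690). Under the block, 42 genes were called between i and p cells. The block changed no other call of the 4 genes.

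Leaving out each library in turn, log2 fold changes whose call or direction changed ranged for i against p cells from -6.80 to -0.17 (*g18848*) and from -9.85 to -1.88 (*g26914*). In c cells from stage 3 to 4 they ranged from 1.28 to 2.93 (*g13797*) and from -0.90 to 2.60 (*g26914*). In p cells they ranged from -2.05 to 10.80 (*g18848*) and from -3.53 to 10.87 (*g26914*) for the same step, and then from -3.16 to 6.45 (*g18848*), 1.45 to 8.43 (*g10527*) and -2.28 to 5.71 (*g26914*). Counts of genes called ranged from 39 to 104 (i against p cells), 57 to 125 (c cells) and 100 to 232 (p cells, both early stage 5 against 4). The count between i and p cells was lowest without either c library of early stage 5, that of c cells was lowest without either c library of early stage 5, and that of p cells was highest without p2 of stage 4. With a pseudocount of 0.5 or 5 CPM the stage-4 difference between c and p cells of *g10527* was 9.26 or 6.11 on the log2 scale. Of the 5 genes most alike in pattern, Spearman correlation kept 2, 2, 3 and 1 for *g13797*, *g18848*, *g10527* and *g26914*. Depth limits the values near 3 counts, which include those of *g10527* in p cells of stage 4, of *g18848* and *g26914* in i cells, and of *g26914* in p1 of stage 4.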
